A study of Mus musculus with 3 samples.

Results

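The small RNAs described here are the 128 rows of the deposited table whose name starts with PC, among 1108 rows in all. PC is a small RNA service's mark for a predicted candidate, a read sequence that was assigned to no known miRNA and given a 5p or 3p arm from a predicted hairpin. The rows were taken by name alone, each kept apart, and comprised 78 rows named PC-3p and 50 named PC-5p. The other rows carried the name of a mature mouse miRNA (670), of a mouse miRNA hairpin (58) or of a miRNA of another species (252).

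The libraries were made from total RNA of cells labelled as fibro/adipogenic progenitors, which reside between muscle fibres and give rise to fibroblasts and fat cells. They came from wild-type mice and were isolated from muscle without culture. Of the 3 libraries, 1 was made from uninjured muscle (normal). Another came 5 days after injection of cardiotoxin, which kills muscle fibres and starts regeneration, and the last 3 weeks after surgery for sciatic denervation (denervated), which makes muscle waste. Strain, age, sex, the way the cells were isolated and the number of animals per library are not stated in the labels. With 1 library per condition, no difference below has a replicate check, no test between conditions was possible, and the intervals cover counting error only.

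A miRNA is cut from a hairpin, first in the nucleus by Drosha and then in the cytoplasm by Dicer, which leaves a short duplex with a 5p and a 3p strand. One strand is loaded into an Argonaute protein, and bases 2 to 8, the seed, choose the targets. Mirtrons are an exception, since splicing in place of Drosha sets the ends of their hairpin, so that an end of the hairpin is an end of an intron. The 3′ ends of mature miRNAs are often trimmed or carry added bases that the genome does not encode, chiefly A and U. Small RNA libraries also hold fragments of ribosomal RNA, transfer RNA and long non-coding RNAs, and a predicted candidate can be any of these.

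The sequences of the 7 candidates that reached a mean of 10 counts per 1000000 counts (CPM) over the 3 libraries are shown because they hold most of the candidates' counts. They are written 5′ to 3′ as in the deposited table, with T in place of U. Capitals mark bases 2 to 8, except in PC-3p-5552_169, where they mark the bases that its miRNA hairpin does not share.
PC-5p-2948_372: gAATTGATcaggacataggga
PC-3p-9315_102: gTGGATCGcctcagctgcgg
PC-3p-7023_133: cTGTCTCTccagccacctttta
PC-5p-3870_259: aGGGAAGTcggcaagccg
PC-3p-5552_169: atcacattgccagggatttTT
PC-5p-11637_84: gGTGGCGCgcgggcgggg
PC-3p-13786_72: gTTCTTAGttggtggagc
PC-5p-2948_372 shared its seed with miR-6390 and PC-3p-5552_169 with miR-23a-3p among the mature mouse miRNAs of RefSeq (GRCm38.p6). The other 5 shared their seed with none. The row of the deposited table named miR-23b-3p shares 18 bases with PC-3p-5552_169, among them the first 15, so that seed is not particular to miR-23a-3p.

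Total counts were 4471365 in normal, 3636249 in cardiotoxin and 7193088 in denervated. A single miRNA, miR-21a-5p, took 53.9% of the cardiotoxin counts, against 2.14% in normal and 10.4% in denervated. The 6 leukocyte miRNAs looked up summed to 422 CPM in normal, 23540 in cardiotoxin and 762 in denervated, and all 6 were over 2-fold above normal in cardiotoxin (4 of 6 in denervated). The 6 mesenchymal miRNAs summed to 176200, 2355 and 178300 CPM, with all 6 over 2-fold below normal in cardiotoxin and miR-214-5p at 0 there. The labelled cell type therefore went against its markers in the cardiotoxin library. Muscle fibre miRNAs summed to 886, 892 and 3102 CPM, endothelial ones to 5401, 19250 and 1659 CPM, and epithelial ones to 859, 114 and 460 CPM, with miR-205-5p at 0 in cardiotoxin. The part of these other cell types in the candidates' levels was not tested.

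The candidates were rare. Their counts summed to 1109 in normal, 2017.5 in cardiotoxin and 1788.5 in denervated. This was 0.0248% of the normal library (95% exact binomial interval 0.0234 to 0.0263%), 0.0555% of the cardiotoxin library (0.0531 to 0.0580%) and 0.0249% of the denervated library (0.0237 to 0.0260%). The summed level was 2.24-fold higher in cardiotoxin than in normal (95% exact conditional binomial interval 2.08 to 2.41) and 2.23-fold higher than in denervated (2.09 to 2.38). The denervated and normal sums were level, with a ratio of 1.002 (0.929 to 1.08). Mature mouse rows held 99.03% of the counts in normal, 98.37% in cardiotoxin and 99.06% in denervated. The share of all other rows together, candidates included, was thus also highest in cardiotoxin. In such bulk libraries, fewer cells of a type and less RNA per cell cannot be told apart.

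The 7 listed above summed to 149 CPM in normal, 435 in cardiotoxin and 152 in denervated, while all the others together summed to 99.1, 120 and 97.1 CPM. The 7 were chosen by a mean that includes cardiotoxin, and 4 of them were under 10 CPM in normal, so this split favours rows that are high in cardiotoxin. PC-5p-2948_372 alone held between 21.8% and 29.3% of the candidates' counts in each library. 4 candidates held 58.6% of the counts of all 128 over the 3 libraries. The highest of them ranked 231 by mean level among the 1108 rows, no candidate reached a mean of 100 CPM, and 94 of 128 were under 1 CPM. The lowest mean among the 7 was 10.3 CPM, and the highest below them was 6.10 CPM.

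**Figure D1:**
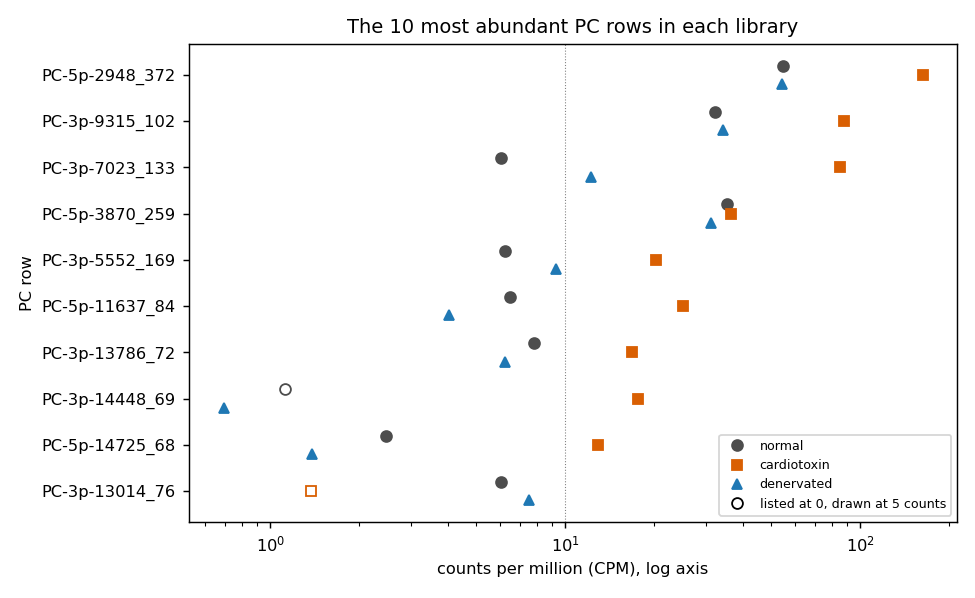
Level of the 10 candidates with the highest mean, in CPM on a log axis, 1 symbol per library. Open symbols are rows listed at 0, drawn at the level of 5 counts. The cardiotoxin symbol lies clearly to the right of both others in 8 of the 10 rows, nearly meets them in PC-5p-3870_259 and is the open one in PC-3p-13014_76.

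Of the 7 candidates at 10 CPM or more, 6 were at least 2-fold higher in cardiotoxin than in normal and none lower. Among all 450 rows of this level, 32.0% were 2-fold higher and 39.8% lower. 4 of the 7 were under 10 CPM in normal and passed the minimum through their level in cardiotoxin, so the count of 6 says little about direction. The 3 that were at 10 CPM or more in every library are free of this, and 2 of them were 2-fold higher in cardiotoxin. The share of all rows under that stricter minimum was not computed, so no direction is read from these 3 either.

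PC-5p-2948_372, the most abundant candidate, had 245 counts in normal, 591 in cardiotoxin and 389 in denervated, or 54.8, 163 and 54.1 CPM. Cardiotoxin stood apart and the other libraries were level. It was 2.97-fold above normal (2.55 to 3.46) and 3.01-fold above denervated (2.64 to 3.43), and the ratio of denervated to normal was 0.987 (0.839 to 1.16).

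PC-3p-9315_102 had the same order, with 144, 320 and 247 counts in normal, cardiotoxin and denervated, or 32.2, 88.0 and 34.3 CPM. The level in cardiotoxin was 2.73-fold that in normal (2.24 to 3.35). Denervated differed from normal by less than counting error, at a ratio of 1.07 (0.865 to 1.32).

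PC-5p-3870_259 was the exception among the 7. It had 158, 133 and 225 counts, or 35.3, 36.6 and 31.3 CPM, so all libraries were level on the CPM scale. Its ratio of cardiotoxin to normal was 1.04 (0.816 to 1.31) and that of denervated to normal 0.885 (0.719 to 1.09). With the total taken without miR-21a-5p its log2 ratio of cardiotoxin to normal was 1.11 in place of 0.05, and that scaling moved the median of all 450 rows by 1.08.

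PC-3p-7023_133 had the widest range of the 7, with 27 counts in normal, 311 in cardiotoxin and 88 in denervated, or 6.04, 85.5 and 12.2 CPM. The 3 libraries were all apart. It was 14.2-fold above normal in cardiotoxin (9.55 to 21.8) and 6.99-fold above denervated (5.50 to 8.96). In denervated it was 2.03-fold above normal (1.30 to 3.25), where its log2 ratio with a pseudocount of 1 CPM was 0.91, short of the 2-fold rule. With the total taken without miR-21a-5p, with TMM or DESeq2 factors or with the authors' signal it passed, at 1.003 to 1.03.

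A second candidate, PC-5p-14725_68, is the same sequence without the first base, and both are shown with the shared stretch in capitals.
PC-3p-7023_133: cTGTCTCTCCAGCCACCTTTTA
PC-5p-14725_68: TGTCTCTCCAGCCACCTTTTA
Although the pair shares 21 bases, the names place them on opposite arms. PC-5p-14725_68 had 11, 47 and 10 counts in normal, cardiotoxin and denervated, or 2.46, 12.9 and 1.39 CPM. Cardiotoxin was again highest, 5.25-fold above normal (2.69 to 11.2). Reads of this pair come from overlapping sequence, so they are not independent candidates.

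The other 3 of the 7 were lower in level. PC-5p-11637_84, made up largely of G and C, had 29, 91 and 29 counts, or 6.49, 25.03 and 4.03 CPM. It was 3.86-fold higher in cardiotoxin than in normal (2.52 to 6.08) and 6.21-fold higher than in denervated (4.05 to 9.78). It shares 15 of its 18 bases with a row named for the human hairpin mir-636, which had 29, 16 and 37 counts, highest in CPM in normal.

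PC-3p-13786_72 had 35, 61 and 45 counts, or 7.83, 16.8 and 6.26 CPM, and was 2.14-fold higher in cardiotoxin than in normal (1.39 to 3.35). Its log2 ratio of 1.01 just met the 2-fold rule and fell short of it, at 0.75 to 0.88, with TMM or DESeq2 factors, the authors' signal or a pseudocount of 5 CPM. Its 18 bases match in full at chr17:39847697-39847714 (GRCm38, plus strand) in the annotated long non-coding RNA Gm42418. In the same annotation the stretch lies antisense to AY036118 and to CT010467.1, which is typed as ribosomal RNA. These are annotated names and strands only, and whether the candidate is a fragment of ribosomal RNA was not tested.

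PC-3p-5552_169 had 28, 74 and 67 counts, or 6.26, 20.4 and 9.31 CPM. It was 3.25-fold higher in cardiotoxin than in normal (2.08 to 5.22) and 2.19-fold higher than in denervated (1.55 to 3.09). It is nearest to miR-23a-3p, with 19 shared bases against 18 with the hairpin of miR-23b. It is taken up again below, with the miR-23a-3p row used as its parent.

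**Figure D2:**
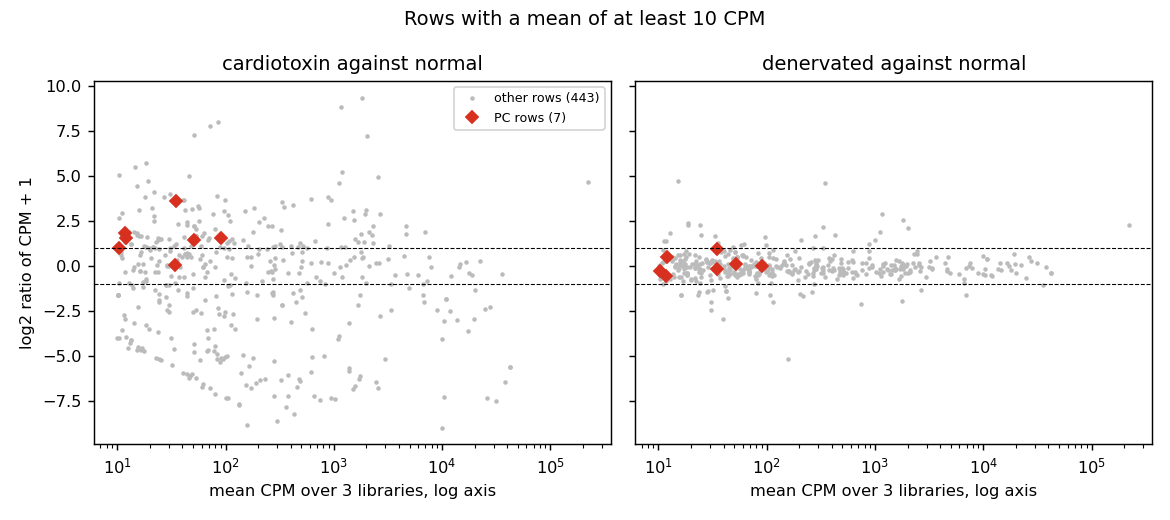
Log2 ratio of CPM plus 1 against the mean level for the 450 rows with a mean of at least 10 CPM, cardiotoxin against normal on the left and denervated against normal on the right. Diamonds are the 7 candidates, grey points the other 443 rows, and dashed lines mark 2-fold. On the left 6 diamonds lie on or above the upper line, and on the right all 7 lie between the lines.

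In denervated against normal, none of the 7 was 2-fold higher or lower. Among all 450 rows, 6.22% were higher and 6.22% lower. The median log2 ratio of the 7 was -0.02, against -0.08 over all 450 rows. In cardiotoxin against denervated, 6 of the 7 were higher and none lower, beside 33.3% and 38.9% of all rows. Of mouse hairpin rows 58.3% were higher and 8.33% lower, and of rows named for other species 46.0% and 28.6%. The same limit holds for this count of 6, and the comparison shares the cardiotoxin library with that against normal.

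The table listed almost no count between 0 and 5, which limits what can be said of the rarer candidates. Of the 384 values of the candidates, 213 were 0, 61 were exactly 5, none was 1 and 2 were above 0 and below 5. A listed 0 may therefore stand for up to 4 counts, and folds against it were computed against 5 counts in that library. This level was 1.12 CPM in normal, 1.38 in cardiotoxin and 0.695 in denervated.

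With this rule, 34 candidates reached a mean of 1 CPM, and 16 of them were at least 2-fold higher in cardiotoxin than in normal and 8 lower. Among all 768 rows at this level, 31.8% were higher and 31.4% lower. The share of candidates that were higher, 47.1%, was near that of mouse hairpin rows, 45.5%. Lower were 23.5% of candidates and 9.09% of mouse hairpin rows. In denervated against normal 1 candidate was higher and 3 lower, beside 7.81% and 8.33% of all rows. In cardiotoxin against denervated 19 candidates (55.9%) were higher and 4 (11.8%) lower, beside 33.6% and 30.7% of all rows. Of mouse hairpin rows 51.5% were higher and 3.03% lower. Many of these candidates too passed the minimum through a single library.

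Candidates at 0 in normal and high in cardiotoxin were led by PC-3p-14448_69, with 0, 64 and 5 counts in normal, cardiotoxin and denervated. It was at least 15.7-fold higher in cardiotoxin than in normal, and 25.3-fold higher than in denervated (10.3 to 80.6). It overlaps a rarer candidate, PC-5p-62430_7, which had 7 counts in cardiotoxin and was listed at 0 in the others. The 16 bases they share are in capitals.
PC-3p-14448_69: GGTGCGTGGCGGGGGCggg
PC-5p-62430_7: gggGGTGCGTGGCGGGGGC
PC-3p-25887_38, with 0, 31 and 7 counts, was at least 7.62-fold higher in cardiotoxin than in normal.

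Other candidates were counted in normal and denervated but listed at 0 in cardiotoxin. PC-3p-13014_76 had 27, 0 and 54 counts in normal, cardiotoxin and denervated, which was at least 4.39-fold lower in cardiotoxin than in normal. PC-5p-25094_39, with 26, 0 and 40 counts, was at least 4.23-fold lower. PC-5p-29003_33, with 37, 0 and 19 counts, was at least 6.02-fold lower in cardiotoxin, and it was also 3.13-fold lower in denervated than in normal (1.76 to 5.77). In all, 8 candidates (6.25%) were counted in normal and denervated only, 3 (2.34%) in cardiotoxin and denervated only, and none in normal and cardiotoxin only. The same 3 patterns held 15.7%, 4.03% and 1.34% of mature mouse rows. They held 13.9%, 3.57% and 2.38% of rows named for other species, and 6.9%, 12.1% and 1.72% of mouse hairpin rows. The order of the candidates is thus also that of 2 of these 3 classes.

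Among candidates with a mean of at least 1 CPM, 4 met the 2-fold rule between denervated and normal, including PC-5p-29003_33. The rule was applied to log2 ratios with the pseudocount of 1 CPM, whereas the folds given here use none. PC-5p-40979_19, with 14 counts in normal and 7 in denervated, was 3.22-fold lower (1.22 to 9.42) in denervated. PC-3p-62098_8, with 18 counts in normal and 0 in the other libraries, was at least 5.79-fold lower. PC-3p-30695_30, with 5 counts in normal and 25 in denervated, was 3.11-fold higher (1.17 to 10.4) in denervated.

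Most candidates were listed in a single library. 101 of 128 had a count above 0 in 1 library only and 16 had one in all 3. Of the mature mouse rows, 20.3% were listed in 1 library and 58.7% in all 3, but their median summed count was 255 against 6 for the candidates. Among rows with a summed count below 10, 87 of 87 candidates and 92.9% of mature mouse rows were listed in 1 library. Among rows with a summed count from 10 to below 30, 14 of 19 candidates (73.7%) and 38.7% of mature mouse rows were.

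The denervated library listed 78 candidates, normal 51 and cardiotoxin 42. Denervated was also the deepest library, so the numbers were also computed at the total of the smallest library. The expected number of candidates with at least 1 count was then 76.9 for denervated, 51.0 for normal and 42.0 for cardiotoxin, in the same order. With at least 5 counts, a limit chosen after seeing that the table lists almost nothing below it, it was 29.3 for denervated, 36.7 for normal and 41.0 for cardiotoxin, in the opposite order. The number with at least 1 count could hardly fall, because the table lists almost no count below 5. Rows below that limit in the smaller libraries may be listed at 0, so this number cannot compare libraries at equal depth. The number with at least 5 counts puts the same limit on all libraries. By it, cardiotoxin held the most candidates at equal depth and denervated the fewest, without a replicate check. 51 candidates were listed in denervated only, 27 in normal only and 23 in cardiotoxin only.

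The 51 candidates listed in denervated only ran from 5 to 14 counts, and 27 of them had exactly 5. 45 of the 51 were at or below the level of 5 counts in another library, so their absence there was not detectable at this depth. None was 2-fold above the level of 5 counts in both other libraries. Of the 27 listed in normal only, 5 were above the level of 5 counts in both others and 1 was 2-fold above it. Of the 23 listed in cardiotoxin only, 22 were above it and 6 were 2-fold above it. Those with most counts were PC-3p-52670_11 (25 counts), PC-3p-51819_12 (21 counts) and PC-3p-59406_8 (20 counts). Cardiotoxin was the smallest library, where 5 counts is the highest level. Any row with 5 counts or more there is therefore above the level of 5 counts in both others, so the 22 of 23 show no difference between libraries.

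**Figure D3:**
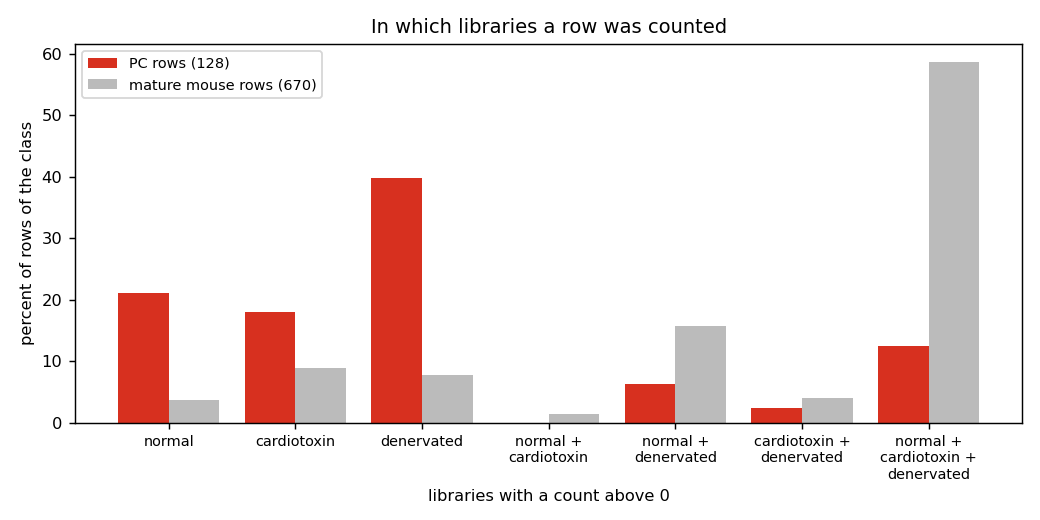
Percent of the 128 candidates and of the 670 mature mouse rows by the libraries in which they had a count above 0. Candidates are concentrated in the 3 patterns of a single library, most of all denervated only, and mature mouse rows in the pattern of all 3 libraries.

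In length and composition the candidates differed from the mature mouse miRNAs of the table. Their length ran from 18 to 26 bases with a median of 20, against a median of 22. 41.4% of candidates were 21 to 23 bases long, the usual product of Dicer, against 85.8% of mature mouse rows, and 33.6% against 4.78% were 18 or 19 bases long. The median GC content was 55.0% against 47.8%, and it was 55.6% in rows named for other species and 61.1% in rows named for mouse hairpins. A run of 4 G was found in 12.5% of candidates, 7.31% of mature mouse rows, 12.7% of rows named for other species and 8.62% of mouse hairpin rows. T, the base that Argonaute proteins favour at the 5′ end as U, came first in 36.7% of candidates and 41.3% of mature mouse rows. Rows named for mouse hairpins were like the candidates in length, with 41.4% at 21 to 23 bases, against 27.8% of rows named for other species.

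**Figure D4:**
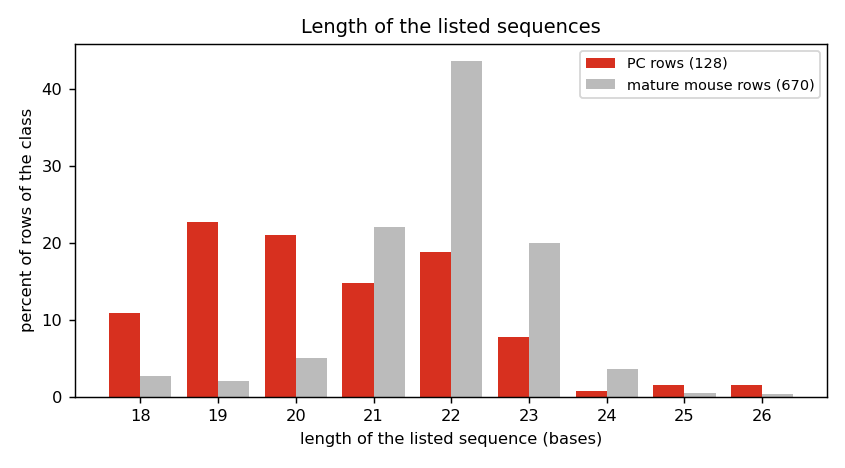
Length of the listed sequences in bases, as percent of the 128 candidates and of the 670 mature mouse rows. Mature mouse rows peak at 22 bases (43.7%), whereas candidates spread over 18 to 23 bases with the highest bar at 19 (22.7%).

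Candidates that are nearly a known miRNA were found by searching RefSeq's 1005 mouse hairpins (GRCm38.p6) for a shared run of at least 15 bases. 12 of 128 had such a run in the sense direction. In 8 of these the run reached the last base of the hairpin and a single further base followed. In the other 4 the run began at the first base of a mature miRNA and ended before its 3′ end.

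7 of the 8 that ran past a hairpin are shown with the base beyond its end in capitals.
PC-3p-13014_76: tctggaggcacatggtttgaaT
PC-3p-21628_47: tccactgagaggaccacccacT
PC-3p-52670_11: actgtgcctctctgttttcagA
PC-3p-43584_17: tgaccggcctatcctctcagT
PC-3p-52616_11: tttccatctgtcatcctgcagT
PC-3p-53465_11: tttcttgtcttccactctagT
PC-3p-75965_6: tgtctcagaaaacaaccaaggaA
All 8 were named PC-3p and lie at the 3′ end of the hairpin. The base beyond was T in 5 of those shown and A in 2.

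4 of these hairpins end where an annotated intron of their host gene ends, the layout of a mirtron. They are Mir7043 (chr6:116645978-116646047, minus strand, Rassf4), Mir6956 (chr15:79002223-79002284, plus strand, Triobp), Mir7093 (chrX:134757631-134757731, plus strand, Armcx3) and Mir6964 (chr16:97877233-97877291, minus strand, C2cd2). The base beyond the hairpin equalled the first base of the next exon in PC-3p-52670_11 of Mir7043 and differed from it in the other 3. The other hairpins of those shown were Mir3475 (chrX:140310948-140311012, plus strand), Mir7224 (chr2:67675457-67675516, plus strand) and the facing copies Mir5615-1 and Mir5615-2 on chromosome 10. For these the genomic base beyond the hairpin was not looked up here.

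3 of the 8 had a row of their own miRNA in the table, and each pair was listed in the same libraries. PC-3p-13014_76 of Mir3475 had 27, 0 and 54 counts in normal, cardiotoxin and denervated, and its miR-3475-3p row had 20, 0 and 51. PC-3p-21628_47 of Mir7224 had 22, 0 and 35 counts, and its miR-7224-3p row had 11, 0 and 5. PC-3p-52670_11 of Mir7043 had 0, 25 and 0 counts, and its miR-7043-3p row had 0, 23 and 0. The candidate had at least as many counts as the named row in every library of these 3 pairs. For the other 5 no row with the same first 15 bases was found in the table.

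Over the 8, the summed level was 15.4 CPM in normal, 8.25 in cardiotoxin and 16.3 in denervated, and 5 of the 8 were listed in 1 library only. PC-3p-43584_17 had 6, 0 and 17 counts, PC-3p-52616_11 had 11 in normal alone and PC-3p-53465_11 had 11 in denervated alone. PC-3p-75965_6 had 3 counts in normal.

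The other 4 begin as an abundant miRNA and differ at the 3′ end. They are shown with the RefSeq mature sequence, capitals marking the bases after the shared stretch.
PC-3p-5552_169: atcacattgccagggatttTT
mmu-miR-23a-3p: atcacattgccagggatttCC
PC-3p-12965_76: tgaggtagtagtttgtacaAA
mmu-let-7g-5p: tgaggtagtagtttgtacaGTT
PC-3p-92917_5: tgaggtagtaggttgtgtTT
mmu-let-7b-5p: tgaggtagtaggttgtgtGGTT
PC-3p-59507_8: ttcacagtggctaagtAAG
mmu-miR-27a-3p: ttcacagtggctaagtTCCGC
Each keeps the seed of its miRNA. miR-23a and miR-27a come from a single cluster on chromosome 8, and the shared stretch of PC-3p-59507_8 is as long in miR-27b. Both let-7 variants were named PC-3p although let-7g-5p and let-7b-5p come from the 5′ arm.

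These variants were a small part of their miRNA. PC-3p-5552_169 amounted to 306 counts per 1000000 counts of the miR-23a-3p row in normal (203 to 442), 1296 in cardiotoxin (1017 to 1627) and 538 in denervated (417 to 683). The parent row was at 20500, 15700 and 17310 CPM. The share was thus 4.24-fold higher in cardiotoxin than in normal (2.71 to 6.81), while the miR-23a-3p row was at 0.766 times its normal level. In denervated the share was 1.76-fold that in normal (1.12 to 2.84). Since miR-23b shares nearly as long a stretch, the parent is not certain. Per 1000000 counts of the miR-23b-3p row, PC-3p-5552_169 amounted to 849, 3977 and 1739 in normal, cardiotoxin and denervated.

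PC-3p-12965_76 moved the other way. It had 23, 5 and 48 counts, which was 335 per 1000000 counts of the let-7g-5p row in normal (213 to 503), 78.6 in cardiotoxin (25.5 to 183) and 386 in denervated (284 to 512). The let-7g-5p row stood at 15340, 17500 and 17300 CPM. The share was 4.27-fold lower in cardiotoxin than in normal (1.59 to 14.4), whereas denervated to normal gave 1.15 (0.687 to 1.98). PC-3p-92917_5 and PC-3p-59507_8 were listed in normal only, with 5 and 8 counts.

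**Figure D5:**
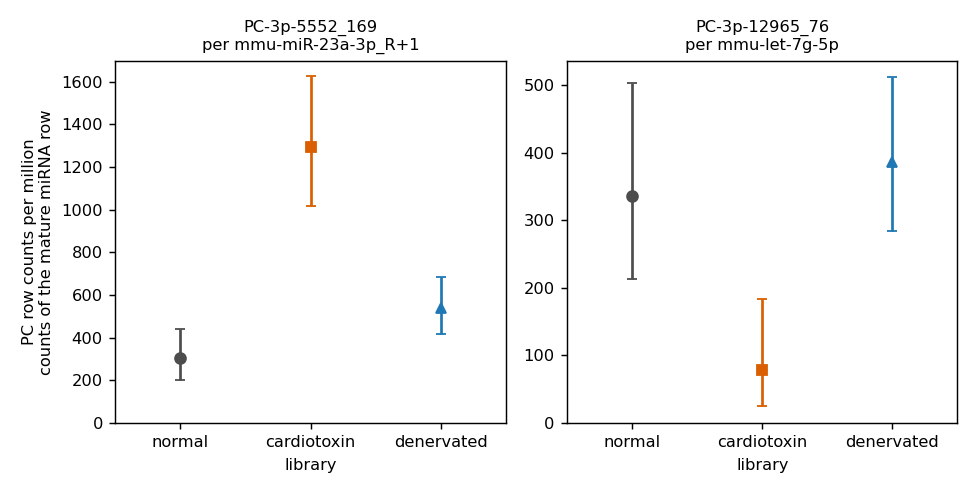
Counts of PC-3p-5552_169 per 1000000 counts of the miR-23a-3p row and of PC-3p-12965_76 per 1000000 counts of the let-7g-5p row in each library. Bars are 95% exact binomial intervals and cover counting error only. Cardiotoxin is the highest library on the left (1296) and the lowest on the right (78.6).

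A candidate also lay on the strand opposite to a known hairpin. PC-3p-55094_10 had 10 counts in denervated and was listed at 0 elsewhere. Its 22 bases match in full at chrX:52742161-52742182 (GRCm38, plus strand), antisense to Mir20b, a member of the miR-106a cluster. It is shown with bases 2 to 8 in capitals.
PC-3p-55094_10: aCCTGCACtatgagcactttgg
PC-5p-88026_5, with 5 counts in denervated, shared 16 of its 19 bases with the strand opposite to Mir214.

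10 of the 128 candidates matched a GENCODE transcript in full and in sense, and none of these transcripts was protein-coding. Besides PC-3p-13786_72, PC-3p-82088_5 with 5 counts in cardiotoxin lies in mt-Rnr1, the small ribosomal RNA of mitochondria. Neat1, the long non-coding RNA that builds nuclear paraspeckles, held 2 candidates at separate places. PC-3p-58173_9, with 14 counts in cardiotoxin only, lies at chr19:5840839-5840857, and PC-5p-74040_6, with 6 counts in denervated only, at chr19:5836934-5836955 (GRCm38, minus strand). PC-5p-75143_6, with 6 counts in denervated, lies in H19, the imprinted RNA that also hosts miR-675.

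PC-5p-40979_19, counted in all 3 libraries with 14, 19 and 7 counts, lies in the long non-coding RNA 6720427I07Rik at chr13:48538261-48538280 (GRCm38, minus strand). Its 3′ part lies within the Mirlet7a-1 hairpin (chr13:48538179-48538272) and the rest just upstream, an overlap shorter than the 15 bases searched for. The remaining 4 lie in Gm49041, Gm37899, Gm26809 and 4833445I07Rik, each with 8 counts or fewer in a single library.

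With the hairpin and transcript searches together, 24 of 128 candidates had a match and 104 had none. None matched a RefSeq promoter window (250 bases before to 50 after the gene start) in full. No genome sequence was used here, so intronic and intergenic places were not searched. Nor was a separate set of ribosomal or transfer RNA sequences, so the 104 without a match may hold fragments of these. Of the 116 candidates without a sense hairpin run, 24 (20.7%) shared bases 2 to 8 with a mature mouse miRNA, whose seeds cover 8.53% of all 7-base words. Words are not equally frequent in genomes, and no weight is put on this difference. Apart from the let-7 pair and 1 other pair, no candidates shared a seed, as 126 distinct seeds were found among 128.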

How the data were processed

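TruSeq small RNA libraries were made from total RNA, per the labels' protocols, with 1 library each for normal, cardiotoxin and denervated. The authors deposited an estimated count per row and library, marked raw per the file headers, of which 87.9% to 88.4% were whole within 1e-06. They also deposited a normalized signal, which equals the estimated count times 1 factor per library. Their deposited chi-square p-value tests reads of single libraries and played no part in the calls. The submitters' processing notes list StringTie. No aligner, miRNA database, genome build or rule for fractional counts is given in the sources used here. The content of 3 emptied table lines is not analysed here, and 1 candidate with a hairpin match is not reported singly.

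Counts were divided by the total over all rows and multiplied by 1000000 (CPM). Log2 ratios used a pseudocount of 1 CPM, folds used none, and a row counted as apart at 2-fold with a mean of at least 10 CPM. Intervals are 95% exact (Clopper-Pearson) on counts rounded to whole numbers. They cover counting error only, as amplified reads carry no molecular identifiers and need not be separate molecules. A floor of 3 counts had been planned, and 5 replaced it once the table was seen to list almost no value from 1 to 4. Scripts were tested on simulated data (Python 3.11.15, pandas 2.3.3, scipy 1.17.1, edgeR 4.0.16, DESeq2 1.42.0).

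The members and lists were chosen with earlier results of these data known. The rule named the 10 candidates with the highest mean, up to 5 highest and 5 lowest ratios per comparison that were 2-fold apart, those at 10 CPM or more that match a miRNA or its seed, and up to 5 overlapping pairs. Candidates named for a match to a hairpin or transcript, for being listed in a single library or for a 2-fold difference below 10 CPM were chosen after their values were seen.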

Additional observations from a re-analysis of the deposited data

How the results depend on the processing

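Between cardiotoxin and normal the count of candidates 2-fold apart was 6, and 5 to 7, all higher, with the other scalings and pseudocounts tried. It was 28 (17 higher, 11 lower) with a minimum of 1 CPM, 69 with none, and 24 with 1 CPM and a listed 0 taken as 5 counts, which was chosen after seeing the data. Between denervated and normal it was 0, but 1 with the total without miR-21a-5p, TMM factors, DESeq2 size factors or the authors' normalized signal. It was 4 at 1 CPM, 38 with no minimum and 4 with a listed 0 taken as 5 counts. Between cardiotoxin and denervated it was 6, but 3 with the authors' signal, 28 at 1 CPM, 53 with no minimum and 23 with a listed 0 taken as 5 counts. These 28, 69, 38 and 53 hold rows listed at 0, whose ratio depends on the pseudocount. A minimum of 100 CPM left no candidate. Without PC-5p-2948_372 the summed share was 0.0193% in normal, 0.0392% in cardiotoxin and 0.0195% in denervated. Without miR-21a-5p in the total it was 0.120% in cardiotoxin and 0.0277% in denervated, and that scaling moved the median log2 ratio of all rows by 1.08 between cardiotoxin and normal. The number of candidates listed in denervated was 78, also with at least 3 counts. At the smallest total 76.9 were expected, a number that could hardly fall because almost no count below 5 was listed. With at least 5 counts at the smallest total, a limit chosen after seeing the data, 29.3 were expected. Of 234 recomputed ratios of named candidates, 197 stayed within their counting interval or had none because a count was 0, 37 moved, and 0 of those at least 2-fold apart changed sign. Smaller ratios did, such as that of PC-5p-3870_259 between cardiotoxin and normal, from 0.05 to -0.23 with the authors' signal. No paired analysis was possible because there was 1 library per condition.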

Other observations

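The authors' deposited table called 93 of the 128 candidates low, 35 middle and none high. Its chi-square p-value was under 0.05 for 124 of them and 0.05 or more for 4, among them PC-5p-3870_259 at 0.333, the abundant candidate that was level in all libraries on the CPM scale. PC-5p-83068_5, with 5 counts in normal and 0 elsewhere, has a p of 0 in the authors' deposited table, while the other 25 rows with the same 3 counts have 0.00508.

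The number that closes a candidate's name equalled its summed count in 102 of 128, was below it in 23 and above it in 3.

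PC-3p-59406_8, with 20 counts in cardiotoxin only, shares 18 to 20 bases with 3 rows named for the human miR-4448. These rows had 17, 14 and 13 counts in cardiotoxin, and all 3 were also counted in denervated (12, 5 and 3.5). In normal they had 6, 0 and 4.5 counts. PC-3p-91817_5, with 5 counts in denervated, overlaps several rows named for the hamster miR-1260. A row that shares 18 bases had 629, 322 and 1006 counts in normal, cardiotoxin and denervated, or 140.7, 88.55 and 139.9 CPM. The most abundant of these rows shares 17 bases and had 849.5, 1758 and 917.8 CPM, highest in cardiotoxin.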
